A study of Mus musculus with 6 samples.

Results

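This account follows 51 genes that skeletal muscle fibres use to contract, through whole dorsal mouse skin 2 days into an experiment with DPCP (diphenylcyclopropenone, a contact sensitizer that provokes an allergic reaction in skin). The members were taken by gene symbol from a list of fast and slow contractile, calcium handling and Z-disc genes, and all 51 were found among the 55487 genes of the deposited table. Expression had been read from polyadenylated RNA in 6 libraries, 3 labelled control and 3 labelled DPCP, all of day 2 per the design text of the series. The labels give no strain, age or sex, nor the treatment of the control skin. They also do not state if each library is from its own animal, so the p-values here describe differences among libraries whose spread may be technical.

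A skeletal muscle fibre is filled with sarcomeres, in which myosin thick filaments pull on actin thin filaments anchored at the Z-disc. Calcium released from the sarcoplasmic reticulum binds troponin and frees the actin for myosin, and a calcium pump then returns it to the store. Fast and slow fibres build this machine from different members of the same gene families. In rodent skin such fibres form the panniculus carnosus, a thin sheet of striated muscle beneath the dermal fat.

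Most of these genes were lower in DPCP skin, and a few were higher. Of the 51 members, 47 had enough counts to be tested, and 33 of those (70.2%) fell, against 23.3% of the 18259 genes in the edgeR quasi-likelihood fit at a Benjamini-Hochberg adjusted p under 0.05. Another 4 were called higher, against 22.8% of all genes tested, and 10 were not called. Among those called higher, Tnni1 passed the filter on low counts through the DPCP libraries alone, which favours a difference between groups. Its values are given below as a description, and without it 3 of 46 members (6.52%) rose. The median log2 fold change was −1.13 over the 47 members and −0.01 over all genes tested. In CPM (counts of a gene per 1000000 counts of its library), the 51 genes together took 22175, 28263 and 24334 in control replicates 1, 2 and 3, and 7559, 10164 and 13234 CPM in DPCP replicates 1, 2 and 3. The groups did not overlap: 2.49% of the counts came from these genes in control libraries on average and 1.03% in DPCP libraries. In whole skin, fewer muscle fibres in a sample and less RNA per fibre cannot be told apart. Leaving out 1 library at a time gave 29 to 35 members called lower and 4 to 6 called higher. Each of the 33 falls was seen in all 3 DPCP libraries without overlap with control. Such separation thus held for 33 of the 47 tested members, beside 33.2% of all genes tested.

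**Figure D1:**
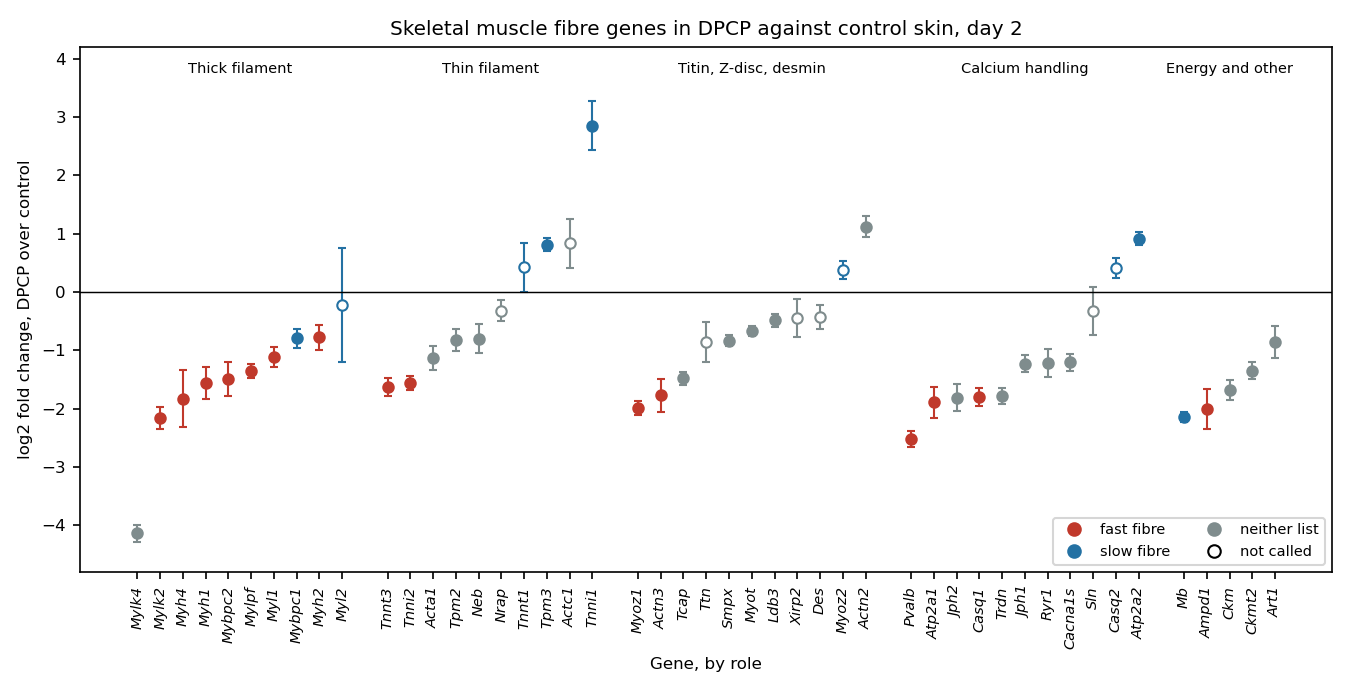
Log2 fold change of DPCP over control skin (y axis) with its standard error (bars) for the 47 tested members, ordered within each role along the x axis, from edgeR on 3 against 3 libraries. Filled points passed an adjusted p under 0.05. Mylk4 lies lowest at −4.14 and Actn2 highest at 1.12 apart from Tnni1, which passed the count filter through the DPCP libraries alone, and the 15 tested fast fibre genes all lie below 0.

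Library totals ran from 28346992 to 38846787 counts. With counts taken as independent, a count of 0 allows up to 3 counts, or 0.0772 to 0.106 CPM (counting error only). Mates of a pair were counted singly, so the limit may be higher. On the first principal component of all tested genes DPCP replicate 1 lay nearest to the control libraries, at 49.1 against 74.2 and 72.2 for the other DPCP libraries. Among the muscle genes it stood at the other end: it was the lowest of the DPCP libraries for 25 of the 33 members that fell, and DPCP replicate 3 the highest for 29. Skeletal muscle was present in the skin, with skeletal alpha actin (Acta1) at 3303 ± 459 CPM in control skin (SD, n = 3). The 9 cardiac muscle markers summed to 9.05 to 9.56 CPM in control and 14.4 to 15.4 CPM in DPCP libraries. The higher DPCP sum came from Nppb, at 6.94, 9.68 and 5.76 CPM in DPCP replicates 1, 2 and 3. That gene passed the count filter through the DPCP libraries alone. The cardiac markers Myh6 and Nppa were at or near 0 in every library, and Myl7 had 0 counts in the control and 49 in the DPCP libraries in all.

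The motor of the thick filament is the myosin heavy chain. The fast chains Myh4 (type 2B, ENSMUSG00000057003, chromosome 11, 67238029 to 67260446, GRCm38), Myh1 (type 2X) and Myh2 (type 2A) were the most abundant chains. Myh4 stood at 2379, 3961 and 2057 CPM in control replicates 1, 2 and 3 and at 259, 753 and 1210.2 CPM in DPCP replicates 1, 2 and 3. The groups did not overlap, yet the 3 DPCP libraries differed widely among themselves, replicate 1 being the lowest. The fall was −1.83 ± 0.49 on the log2 scale (SE, edgeR adjusted p = 0.015), and without control replicate 2 it was −1.50 and not called (adjusted p = 0.0582). Myh1 went from 2247, 2141 and 2759.6 CPM to 551, 593 and 1169 CPM, or −1.56 ± 0.28 on the log2 scale (SE, edgeR adjusted p = 0.00224). Myh2 had the smallest fall of the role that passed the test, from 227, 349.9 and 253 CPM to 129, 127 and 203 CPM (−0.78 ± 0.21, edgeR adjusted p = 0.0163), and was not called without control replicate 2 or without DPCP replicate 2 (−0.57 and −0.68). The perinatal chain Myh8 was at 3.88, 9.703 and 7.11 CPM in control and 3.03, 3.604 and 6.99 CPM in DPCP libraries, not called (edgeR adjusted p = 0.287). The slow chain Myh7 had 0, 2 and 0 counts in control and 0, 0 and 8 in DPCP libraries, too few to test.

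Levels per length show the make-up of the heavy chain pool. On the length-scaled form of CPM (TPM), Myh4 was 51.9 ± 10.5% of the summed TPM of 6 skeletal heavy chain genes in control and 43.5 ± 12.7% in DPCP libraries (SD, n = 3). Myh1 held 43.7 ± 10.7% and 47.5 ± 9.89%. Their order changed between libraries of the same group, so neither chain led beyond the spread. Myh2 held 4.07, 4.69 and 4.36% in control and 12.2, 7.54 and 6.86% in DPCP libraries, higher in every DPCP library. Near-identical stretches make these levels uncertain: 2.37% of the 150-base windows of Myh1 transcripts, 1.75% of those of Myh2 and 0.511% of those of Myh4 also occur in another gene.

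The fast light chains and the proteins that regulate the thick filament fell as well. Of the 10 tested genes of this role 9 (90%) fell and none rose, beside 23.3% and 22.8% of all genes tested. The median log2 fold change was −1.42. The myosin light chain kinase family gene Mylk4 (ENSMUSG00000044951, chromosome 13, 32700827 to 32783954) fell furthest of all members, from 51.3, 40.5 and 42.3 CPM to 2.39, 2.11 and 2.72 CPM. It was left at 5.66% of its control level, or −4.14 ± 0.14 on the log2 scale (SE, edgeR adjusted p = 1.57e-06), with little spread in either group. Mylk2, the light chain kinase of skeletal muscle, went from 114, 179 and 169.7 to 28.4, 31.5 and 38.2 CPM (−2.16 ± 0.19, edgeR adjusted p = 6.91e-05). The fast regulatory light chain Mylpf fell from 914, 969 and 815 to 293, 328 and 378 CPM (−1.36 ± 0.12). The fast essential light chain Myl1 fell from 703, 759.95 and 468 to 246, 287 and 310.4 CPM (−1.11 ± 0.17). Both light chains were lower in every DPCP library. Of the myosin binding proteins C, the fast form Mybpc2 went from 311, 409 and 289 to 64.6, 119 and 156 CPM, a fall of 1.49 ± 0.29 on the log2 scale. The slow form Mybpc1 went from 313, 335 and 338 to 137, 176 and 225 CPM, a fall of 0.80 ± 0.17. The slow light chains were near 0: Myl2 had 23 counts in the control and 21 in the DPCP libraries in all (log2 fold change −0.23 ± 0.97, edgeR adjusted p = 0.864), and Myl3 had 8 and 12.

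In the thin filament, the fast troponins fell and Tpm3 rose. Leaving Tnni1 aside, 9 genes were tested, of which 5 (55.6%) fell, 1 (11.1%) rose and 3 were not called. Over all genes tested, 23.3% fell and 22.8% rose. The median log2 fold change of the 9 was −0.80. Acta1 (ENSMUSG00000031972, chromosome 8, 123891769 to 123894751), the actin of the skeletal thin filament and the most abundant member per length at 6091 TPM in control skin, went from 2854, 3771 and 3284 CPM to 1057, 1403 and 1828 CPM, or to 45.7% of control. Troponin T binds the troponin complex to tropomyosin, and its fast form Tnnt3 fell from 1552, 1632 and 1527 to 376, 498 and 569 CPM (−1.63 ± 0.16, edgeR adjusted p = 0.000108). The fast inhibitory subunit Tnni2 stood at 952, 938 and 962 CPM in control and 263, 303 and 352 CPM in DPCP libraries (−1.56 ± 0.12, edgeR adjusted p = 4.31e-05). Both troponins were nearly level among the control libraries, so their falls far exceeded the spread.

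The slow inhibitory subunit Tnni1 (ENSMUSG00000026418, chromosome 1, 135779434 to 135810989) stood at 0.353, 0.173 and 0.1195 CPM in control and 1.18, 1.699 and 1.52 CPM in DPCP libraries, with every DPCP library above every control library. Its level stayed low: 19 counts in the control and 155 in the DPCP libraries, or 1.04 TPM in DPCP skin against 526 TPM for Tnni2, and no test is given since only the DPCP libraries carried it past the filter. Tpm3, a tropomyosin of slow fibres that many other cells also make, rose from 229, 251 and 229.6 to 339.9, 417 and 423 CPM (0.81 ± 0.12, edgeR adjusted p = 0.00074). The related gene model Tpm3-rs7 shares 10.2% of the 150-base windows of Tpm3 transcripts, so its level is uncertain. Tpm2, the beta tropomyosin, fell from 1163 ± 204 to 626 ± 141 CPM (SD, n = 3; −0.82 ± 0.19). Nebulin (Neb), which runs along the thin filament, went from 704, 892 and 871 to 285, 429.5 and 629 CPM (−0.80 ± 0.26, edgeR adjusted p = 0.0315), and was not called without control replicate 2, control replicate 3 or DPCP replicate 2 (−0.74, −0.74 and −0.79). Nrap, an anchor protein at the ends of myofibrils, was at 165, 213 and 198 and 107, 153 and 175 CPM, not called (edgeR adjusted p = 0.181).

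The slow troponin T gene Tnnt1 was at 0.988, 2.77 and 1.49 CPM in control and 1.498, 1.93 and 3.26 CPM in DPCP libraries, with overlapping groups. The cardiac actin gene Actc1 was at 0.597 ± 0.237 and 0.993 ± 0.365 CPM, neither gene called (edgeR adjusted p = 0.434 and 0.136). The calcium-binding subunit of troponin had too few counts to test in either form. Tnnc1, the slow and cardiac form, shares no exon base with another gene and had 22 control and 21 DPCP counts. The fast form Tnnc2 had 11 and 4, while its partners Tnnt3 and Tnni2 had 142209 and 86251 control counts. An exon annotated to Ube2c on the other strand covers 74.0% of the Tnnc2 exon bases, and counting without strand drops reads that lie in both. Whether this overlap accounts for the low counts was not tested.

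**Figure D2:**
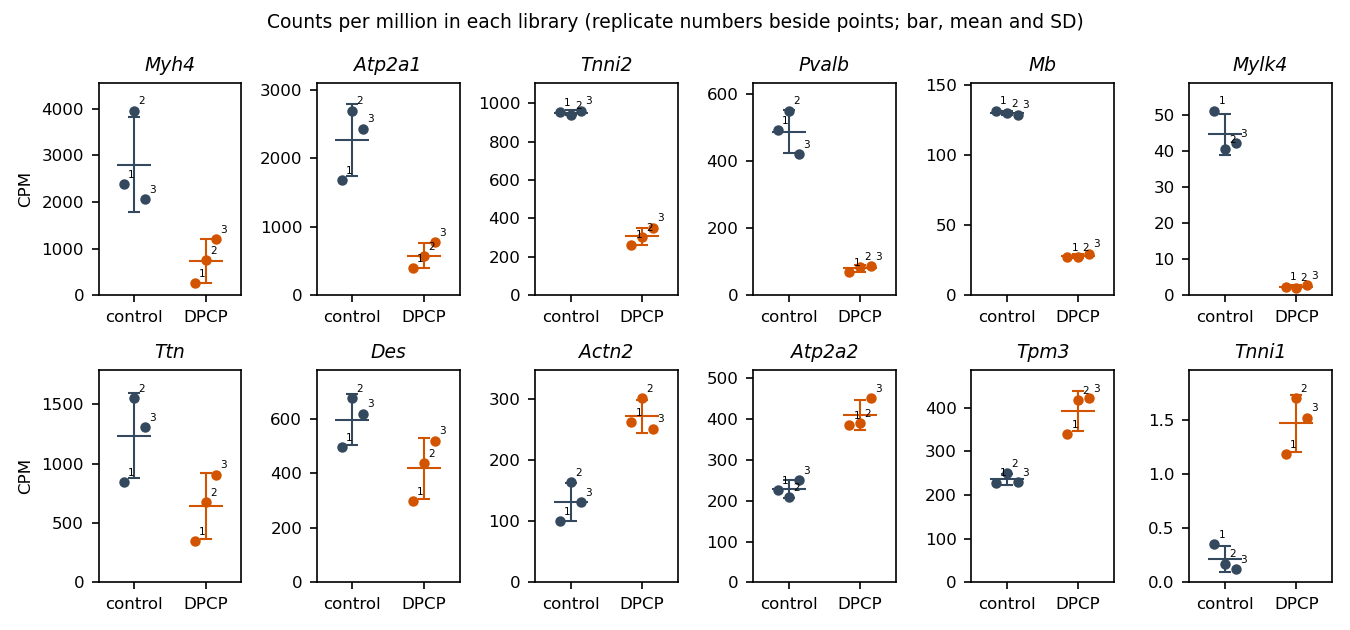
Level in CPM (y axes, each from 0) of 12 members in the 3 control and 3 DPCP libraries, numbered by replicate, with the mean and SD as bars. The fast fibre genes Myh4, Atp2a1, Tnni2 and Pvalb are lower in every DPCP library, and Ttn and Des overlap between groups. Actn2, Atp2a2, Tpm3 and Tnni1 are higher in every DPCP library (Tnni1 passed the count filter through the DPCP libraries alone).

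At the Z-disc and in the elastic scaffold, fast fibre genes fell, the alpha-actinin Actn2 rose and titin was not called. Of 11 tested genes 6 (54.5%) fell and 1 (9.09%) rose, beside 23.3% and 22.8% of all genes tested. Another 4 were not called, and the median log2 fold change was −0.67. Myoz1, a calsarcin that binds calcineurin at the Z-disc of fast fibres, fell from 193, 201 and 181 to 40.7, 43.7 and 53.1 CPM (−1.99 ± 0.11, edgeR adjusted p = 1.09e-05). Actn3, the alpha-actinin of fast fibres, fell from 388, 536 and 384 to 72.1, 118 and 172 CPM (−1.77 ± 0.29, edgeR adjusted p = 0.0014). Actn2 (ENSMUSG00000052374, chromosome 13, 12269426 to 12340760), the alpha-actinin present in all fibres, rose from 101, 164 and 132 to 262, 302 and 252 CPM (1.12 ± 0.17, edgeR adjusted p = 0.00114). Per length, Actn3 exceeded Actn2 in control skin (426 against 98.7 TPM) and was below it in DPCP skin (107 against 183 TPM).

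Tcap (telethonin), which caps titin at the Z-disc, fell to 35.7% of control, Smpx to 56.1% and myotilin (Myot) to 62.9%. Ldb3, a PDZ and LIM protein of the Z-disc, had the smallest fall called among all members, from 208, 269 and 243 to 163, 165 and 160.1 CPM (−0.49 ± 0.11, edgeR adjusted p = 0.0068). Titin (Ttn), the spring that links the Z-disc to the M-band, stood at 843, 1552 and 1308 CPM in control and 349, 673 and 907 CPM in DPCP libraries. These values overlapped, and titin was not called (−0.86 ± 0.34, edgeR adjusted p = 0.0665), though it was called without DPCP replicate 3 (−1.17, adjusted p = 0.0311) and without control replicate 1 (−1.07, 0.0428). It was also called lower with library totals alone, without a count filter and with the replicate block (edgeR adjusted p = 0.0443, 0.0031 and 0.00185), so 5 of its 11 alternatives gave a call. Xirp2, an actin-binding repeat protein, was at 259, 304 and 322 and 105, 201 and 310.2 CPM (−0.45 ± 0.32, edgeR adjusted p = 0.291), and without DPCP replicate 3 its log2 fold change was −0.85 and called. Desmin (Des), the intermediate filament that smooth muscle also makes, was at 495, 676 and 618 and 298, 438 and 519.7 CPM, not called (edgeR adjusted p = 0.119). The slow fibre calsarcin Myoz2 was at 16.1, 24.9 and 20.5 and 25.8, 26.8 and 23.03 CPM, also not called (edgeR adjusted p = 0.0833), and it passed the test as higher once control replicate 2 was left out (0.54).

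Most genes that release, store, buffer and pump calcium fell. Of 11 tested, 8 (72.7%) fell and 1 (9.09%) rose, beside 23.3% and 22.8% of all genes tested. Another 2 were not called, and the median log2 fold change was −1.23. Parvalbumin (Pvalb, ENSMUSG00000005716, chromosome 15, 78191114 to 78206400), the calcium buffer of the fastest fibres, went from 492, 551 and 422 CPM to 68.9, 85.5 and 87.3 CPM, leaving 17.4% of the control level (−2.52 ± 0.14, edgeR adjusted p = 9.29e-06). The fast calcium pump Atp2a1 (SERCA1, ENSMUSG00000030730, chromosome 7, 126445858 to 126463108) fell from 1677, 2692 and 2430.4 to 398, 567 and 771 CPM (−1.89 ± 0.26, edgeR adjusted p = 0.000642). Of its exon bases, 21.9% are shared with Rabep2, so its level is uncertain. Atp2a2 (SERCA2, ENSMUSG00000029467, chromosome 5, 122453513 to 122502225), the pump of slow fibres and in another form of most cells, keratinocytes included, rose from 227, 209 and 251 to 386, 391 and 452 CPM (0.91 ± 0.11, edgeR adjusted p = 0.000381). Each pump was separate between groups, in opposite directions.

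The store protein calsequestrin 1 (Casq1) fell from 203, 238 and 182 to 46.4, 56.1 and 67.4 CPM, or to 28.8% of control, and its partner triadin (Trdn) to 29.1%. The junctophilins, which hold the store against the surface membrane, fell to 28.5% (Jph2) and 42.5% (Jph1). The release channel gene Ryr1 and the voltage sensor gene Cacna1s fell to 42.97% and 43.3%, Cacna1s from 58.8, 74.1 and 72.04 to 23.7, 26.8 and 33.7 CPM. Calsequestrin 2 (Casq2), of slow and cardiac muscle, was at 7.41, 11.2 and 8.69 and 10.5, 10.97 and 12.8 CPM, not called (edgeR adjusted p = 0.0836), and it too passed as higher once control replicate 2 was left out (0.58). Sarcolipin (Sln), a small inhibitor of the calcium pump, was at 12.7, 21.7 and 9.98 and 5.65, 9.52 and 18.3 CPM, with wide overlap (edgeR adjusted p = 0.546).

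All 5 genes of energy supply and related roles fell, beside 23.3% of all genes tested. Myoglobin (Mb), the oxygen store of oxidative fibres, went from 132, 129.6 and 129 CPM to 26.9, 27.2 and 29.7 CPM, and neither group varied by more than a few CPM (−2.14 ± 0.08, edgeR adjusted p = 2.12e-06). Its exons overlap those of Apol6 over 31.9% of their bases together with a second gene model, so its level is uncertain. Ampd1, the AMP deaminase of muscle, fell from 54.6, 64.4 and 40.1 to 7.35, 9.58 and 20.6 CPM (−2.01 ± 0.35, edgeR adjusted p = 0.00194). The muscle creatine kinase gene Ckm fell from 1095 ± 103 to 323 ± 77.5 CPM and its mitochondrial partner Ckmt2 from 86.6 ± 2.42 to 32.3 ± 6.47 CPM (SD, n = 3). Art1, a surface ADP-ribosyltransferase, fell from 29.4, 38.4 and 32.1 to 9.82, 18.5 and 23.9 CPM (−0.86 ± 0.28, edgeR adjusted p = 0.0337). That call was lost without control replicate 1, 2 or 3 or DPCP replicate 2 (adjusted p = 0.0523, 0.11, 0.0669 and 0.0611), and an exon of Chrna10 covers part of the gene.

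The tested fast members all fell, and the slow members were called about as often as genes in general. Of the 16 genes assigned to fast fibres, the 15 tested all fell, with log2 fold changes of −2.52 to −0.78 and a median of −1.77. Their log2 fold changes had an SD of 0.426 over the 15 genes. Of the 12 assigned to slow fibres, 8 were tested apart from Tnni1, of which 2 fell (Mb and Mybpc1), 2 rose (Atp2a2 and Tpm3) and 4 were not called. That is 25% in each direction, beside 23.3% lower and 22.8% higher over all genes, and the median was 0.39. Low slow genes (Myh7, Myl3 and Tnnc1) are outside this count. The 23 members in neither list had a median of −0.86, with 16 lower and 1 higher (69.6% and 4.35%). Summed, the fast list took 12408, 15622 and 12940.2 CPM in control and 2842, 3919.6 and 5556 CPM in DPCP libraries, without overlap. The slow list took 925, 965 and 979 and 929, 1054 and 1171 CPM, with overlap. Most of the slow sum came from Tpm3, Atp2a2 and Mybpc1, and the first 2 of these are also made outside muscle, so the counts do not tell which cells made them. The slow genes Myh7, Myl2, Myl3 and Tnnc1 were at or under 0.475 CPM in every library, while the slow troponin genes Tnni1 and Tnnt1 reached 1.699 and 3.26 CPM. The slow list is thus no measure of slow fibres in this skin.

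Comparing the fast with the slow form of the same protein inside each library removes any scaling between libraries. It does not make the ratio one of muscle fibres alone, since Atp2a2 is also made outside muscle. Of 10 such pairs, 7 had both genes tested, 1 of them the Tnni2 and Tnni1 pair described without a test. In 5 of the other 6 the log2 ratio of fast to slow counts was lower in every DPCP library than in every control library. The calcium pump pair Atp2a1 over Atp2a2 stood at 2.88, 3.69 and 3.27 in control and 0.04, 0.54 and 0.77 in DPCP replicates 1, 2 and 3, a difference of −2.83 ± 0.31 (SE). The calsarcins Myoz1 over Myoz2 shifted by −2.39 ± 0.25, the calsequestrins Casq1 over Casq2 by −2.23 ± 0.15 and the troponin T pair Tnnt3 over Tnnt1 by −2.12 ± 0.44. Myoz2, Casq2 and Tnnt1 were not called, while Myoz1, Casq1 and Tnnt3 alone had log2 fold changes of −1.99, −1.80 and −1.63. The myosin binding proteins Mybpc2 over Mybpc1 shifted least of the 5, by −0.75 ± 0.23. Each of these 5 reached 0.1 by an exact two-sided permutation test of the libraries, the smallest p that 3 against 3 allows (Benjamini-Hochberg adjusted over 6 pairs, 0.12), so no pair could pass 0.05. The remaining pair, Mylpf over Myl2, differed by −0.37 ± 1.56 with overlap (exact permutation p = 0.8), and Myl2 was close to 0. The troponin I pair stood at 11.33, 12.26 and 12.80 in control and 7.78, 7.47 and 7.84 in DPCP libraries, given as values only.

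**Figure D3:**
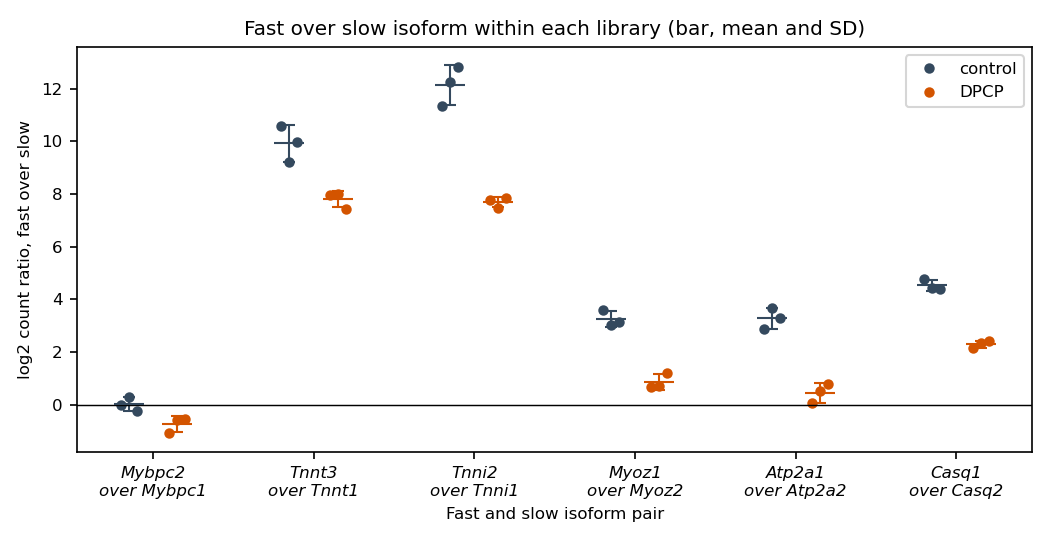
Log2 ratio of fast to slow isoform counts (y axis) in each of 3 control and 3 DPCP libraries for 6 pairs (x axis), with the mean and SD as bars. Every DPCP point lies below every control point of its pair (Tnni1 passed the count filter through the DPCP libraries alone), and Atp2a1 over Atp2a2 goes from a mean of 3.28 to 0.45. Atp2a2 is also made outside muscle.

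The falls spread widely between genes and followed one order between libraries. Of the 47 members tested, 25 (53.2%) were called lower by more than 2-fold, against 9.12% of all genes tested, and 5 by more than 4-fold (Mylk4, Pvalb, Mylk2, Mb and Ampd1). Of the 33, 25 had DPCP replicate 1 below replicate 2 and replicate 2 below replicate 3. The control libraries were less ordered, with replicate 2 highest for 23 of the 33. A few members kept to a narrow range in DPCP skin despite this, among them Mb, Myot, Ldb3 and Mylk4. Ckmt2 ran against the order, at 38.1, 33.4 and 25.3 CPM in DPCP replicates 1, 2 and 3, and Myot, Ldb3 and Smpx were also lower in replicate 3 than in replicate 1.

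Promoters of members that moved are shown because muscle genes share binding motifs there. RefSeq (GRCm38.p6) gave the 250 bases before the start for 38 of the 51 members, in 47 windows, since some genes have several starts. The following 5 windows, 5′ to 3′ along each gene, belong to the member with the largest fall (Mylk4), the fast fibre member with the largest fall (Pvalb), the fast heavy chain Myh4, the most abundant member (Acta1) and a member that rose (Tpm3). Capitals mark matches to the MEF2 motif, the CArG box of serum response factor, the E-box CAGCTG of myogenic factors and the M-CAT core CATTCC of TEAD factors, on either strand.
Mylk4 (chr13:32783965-32784214, minus strand): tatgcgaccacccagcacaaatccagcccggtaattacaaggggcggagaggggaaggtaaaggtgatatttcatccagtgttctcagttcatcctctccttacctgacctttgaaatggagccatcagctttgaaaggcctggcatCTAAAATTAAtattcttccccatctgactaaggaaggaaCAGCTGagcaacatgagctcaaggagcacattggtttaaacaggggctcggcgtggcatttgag
Pvalb (chr15:78206401-78206650, minus strand): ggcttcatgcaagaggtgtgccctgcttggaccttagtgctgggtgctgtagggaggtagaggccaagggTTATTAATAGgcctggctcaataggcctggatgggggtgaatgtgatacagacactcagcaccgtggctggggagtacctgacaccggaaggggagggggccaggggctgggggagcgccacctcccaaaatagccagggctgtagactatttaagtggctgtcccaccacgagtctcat
Myh4 (chr11:67237562-67237811, plus strand): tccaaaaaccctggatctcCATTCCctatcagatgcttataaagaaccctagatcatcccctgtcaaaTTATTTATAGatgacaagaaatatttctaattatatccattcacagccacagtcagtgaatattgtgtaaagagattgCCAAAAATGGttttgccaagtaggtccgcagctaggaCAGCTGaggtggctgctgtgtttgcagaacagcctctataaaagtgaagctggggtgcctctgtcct
Acta1 (chr8:123894776-123895025, minus strand): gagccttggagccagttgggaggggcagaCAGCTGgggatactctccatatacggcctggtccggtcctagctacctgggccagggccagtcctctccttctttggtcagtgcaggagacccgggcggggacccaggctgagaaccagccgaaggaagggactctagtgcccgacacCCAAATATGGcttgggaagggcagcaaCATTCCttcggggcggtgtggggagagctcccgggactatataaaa
Tpm3 (chr3:90072401-90072650, plus strand): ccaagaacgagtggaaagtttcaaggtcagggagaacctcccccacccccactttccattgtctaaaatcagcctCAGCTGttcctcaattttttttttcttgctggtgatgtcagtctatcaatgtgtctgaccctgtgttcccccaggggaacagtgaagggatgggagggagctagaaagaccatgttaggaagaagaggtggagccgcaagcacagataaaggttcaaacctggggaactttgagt

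The window of Myh4 held all 4 motifs, and that of Acta1 held a CArG box, an E-box and an M-CAT core. Mylk4 had a MEF2 match and an E-box, Pvalb a MEF2 match alone and Tpm3 an E-box alone. Pvalb and Tpm3 each have a second RefSeq window, not shown, with no match to any of the 4 motifs. The E-box CAGCTG was found in 24 of the 47 member windows (51.1%) and in 13.0% of all 32851 windows of this length. MEF2 matches were in 17.02% of member windows and 2.92% of all, CArG boxes in 12.8% and 1.47%, and M-CAT cores in 19.1% and 12.6%. No match overlapped another in the 5 windows shown. Windows of 1 gene with several starts overlap, and a match is only a match of letters. Both members that rose and members that fell had matches: the rising Tpm3, in the window shown, and the falling Mylpf each held an E-box.

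Other genes of the muscle fibre also fell in most cases. Of 55 further genes of the sarcomere, triad, end plate and muscle metabolism, all 55 were tested, 38 fell (69.1%) and 3 rose (5.45%), beside 23.3% lower and 22.8% higher over all genes tested, with a median log2 fold change of −0.95. The M-band protein gene Myom2 went from 200.1, 239 and 221 to 68.8, 70.04 and 65.8 CPM (−1.61 ± 0.10, edgeR adjusted p = 1.34e-05). The thin filament nucleator Lmod3 went from 40.2, 46.6 and 43.1 to 10.7, 12.6 and 11.7 CPM (−1.82 ± 0.11) and Smtnl1 from 33.8, 34.6 and 34.1 to 12.6, 12.02 and 11.9 CPM (−1.41 ± 0.09). The muscle fructose bisphosphatase Fbp2 went from 23.2, 20.2 and 22.02 to 3.05, 2.81 and 4.14 CPM (−2.64 ± 0.17). All 4 were well apart between groups. The genes that rose were Ankrd2, an ankyrin repeat protein of stretched muscle, Csrp3, the muscle LIM protein, and Dysf, the membrane repair protein dysferlin, which was named after its value was seen. Ankrd2 went from 6.88, 8.91 and 7.77 to 42.6, 60.2 and 51.6 CPM (2.79 ± 0.17, edgeR adjusted p = 1.37e-05) and Csrp3 from 51.7, 53.6 and 50.7 to 161, 189.6 and 159 CPM (1.79 ± 0.11, edgeR adjusted p = 1.31e-05). Both were separate between groups by a wide margin. The end plate genes Chrnb1 and Musk had log2 fold changes of −0.01 ± 0.25 and 0.06 ± 0.25 (edgeR adjusted p = 0.968 and 0.866).

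Markers of the tissues around the muscle sheet were called at shares to be read beside the 23.3% lower and 22.8% higher over all genes tested. The 12 smooth muscle genes summed to 628 to 858 CPM in control and 600.4 to 691 CPM in DPCP libraries, with 5 lower and 3 higher (41.7% and 25%). Synm and Lmod1, the members that fell most, had log2 fold changes of −1.50 ± 0.13 and −1.83 ± 0.17. The others called lower were Itga8, Myh11 and Mylk (−0.89, −0.60 and −0.44). Hspb6, Smtn and Acta2 were called higher (0.54, 0.44 and 0.37), and the groups overlapped for Smtn and Acta2. The 10 adipocyte genes summed to 2636 to 2745 CPM in control and 2205 to 2611 CPM in DPCP libraries, without overlap, with 3 lower and 2 higher (30% and 20%). The 6 fibroblast genes summed to 4752 to 7004 and 6202 to 7230.3 CPM, with none lower and 2 higher (33.3%). No gene of these 3 lists was at 0 in any library, though the smooth muscle gene Tagln was low, at 0.317 to 0.849 CPM. Its exons overlap those of Pcsk7. Their part in the falls of the muscle genes was not tested.

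**Figure D4:**
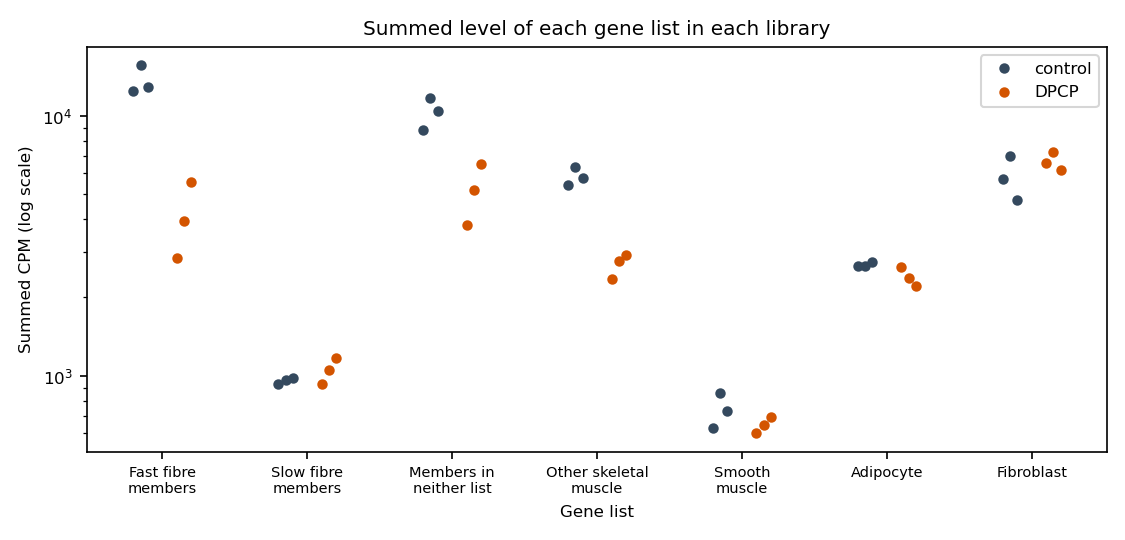
Summed CPM (y axis, log scale) of 7 gene lists (x axis) in each of 3 control and 3 DPCP libraries. The fast fibre members lie at 12408 to 15622 in control and 2842 to 5556 in DPCP libraries, while the slow fibre, smooth muscle and fibroblast sums overlap between groups and the adipocyte sums lie close together without overlap.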

How the data were processed

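Whole dorsal skin was measured in 6 libraries (3 control, 3 DPCP) from TRIzol RNA made into strand-preserving polyA libraries and read in pairs, per the labels' protocols. The authors deposited raw counts per gene, which per the file headers came from featureCounts 1.6.2 and Ensembl's GRCm38 gene models (release 102). No option for strand, pairs, multiple alignments or overlapping genes was set there, so mates were counted singly on either strand and ambiguous reads were dropped. Per the submitters' processing notes the genome was mm10, and the tools included HISAT2 2.2.1 and Trimmomatic 0.36, with DESeq2 1.34.0 and StringTie 2.2.1. Of the 47 members tested, 20 share exon bases with another gene. The largest shares were in Art1 (36.5%), Mb (31.9%), Atp2a1 (21.9%), Cacna1s (20.0%) and Ckm (15.5%). Symbols came from the GENCODE M21 names, which covered 55141 of 55487 identifiers, and 1 older symbol was matched through RefSeq.

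Tests were edgeR 4.0.16 quasi-likelihood F-tests in R 4.3.3 on all genes passing filterByExpr, with TMM factors and Benjamini-Hochberg adjustment over 18259 genes. SE is the unshrunken log2 fold change over the square root of F. CPM uses library totals, and TPM the deposited exon length. Pair ratios used a prior count of 0.5. The procedure was tested on simulated data. The members and lists were chosen with earlier results of these data known. Members with values per library were, per role, the 2 largest falls, the smallest fall, all rises and the smallest difference not called, plus both genes of each pair with enough counts, and of the other muscle genes the 4 falls with the smallest p, 2 rises and the 2 smallest differences. Myh1, Acta1, Ttn, Xirp2, Des, Ckmt2 and Myh8 were added after their values were seen. Setting aside the member that passed the filter through 1 group alone was decided after seeing the data. Alternatives were RLE factors, library totals alone, no filter, DESeq2 1.42.0, a replicate block, genes sharing no exon base, and leaving out each library.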

Additional observations from a re-analysis of the deposited data

How the results depend on the processing

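Of the 33 members that fell, 29 kept direction and call under every alternative that tested them. The exceptions were Art1, Neb, Myh2 and Myh4, which lost the call when 1 library was left out. Actn2, Atp2a2 and Tpm3 kept theirs likewise, other scalings included, and 2 of the 10 not called kept direction and side throughout. Myoz2 and Des were also called without a count filter and with the replicate block, and Nrap with the block. Among the 12271 tested genes sharing no exon base, 2708 rose in all, fewer by construction. Only 27 members were tested there, of which 19 were called lower and 3 higher. Without a count filter 5 of the other skeletal muscle genes rose, and without DPCP replicate 1, 6 did (range 3 to 6 over left-out libraries). The median of the fast members ranged from −1.97 to −1.46, and that of the slow members (0.41 with Tnni1, 0.39 without it) with Tnni1 from 0.24 to 0.58, when 1 library was left out. Sign reversals were seen only for these values, none of them called. Mylpf over Myl2, −0.37 with all libraries, ranged from −1.72 to 0.64 when 1 was left out, reversing without control replicate 1 or DPCP replicate 3. Musk, 0.058 with all libraries, ranged from −0.086 to 0.23 when 1 was left out, reversing without control replicate 1 or DPCP replicate 2, and was −0.020 under library totals alone. Sln, −0.33 with all libraries, ranged from −0.85 to 0.056 when 1 was left out, reversing without control replicate 2 or DPCP replicate 1. Chrnb1, −0.014 with all libraries, ranged from −0.25 to 0.20 when 1 was left out, reversing without control replicate 2 or DPCP replicate 1 or DPCP replicate 2, and was 0.0043 under DESeq2. Myl2, −0.23 with all libraries, ranged from −1.50 to 0.37 when 1 was left out, reversing without DPCP replicate 1. The cause was not tested.

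Replicate numbers are shared between groups. Same-numbered libraries had correlations of deviations of 0.0456, 0.0262 and 0.112, and not every library matched its own number best, so they share a number only. With the replicate block 36 members were called lower and 5 higher, and the genes called numbered 4241 lower and 4260 higher. Near-zero slow genes (Myh7, Myl3, Tnnc1) and Tnnc2 had too few counts to test and carry no comparison.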

Other observations

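The 6 genes of muscle stem cells and young muscle cells summed to 13.6 to 19.7 CPM in control and 8.18 to 13.1 CPM in DPCP libraries, and 2 of the 6 fell (33.3%, beside 23.3% of all genes tested). Myod1, the transcription factor that commits cells to muscle, went from 5.19, 5.302 and 9.05 CPM in control to 0.576, 0.927 and 1.46 CPM in DPCP replicates 1, 2 and 3 (−2.66 ± 0.37, edgeR adjusted p = 0.000657), without overlap. Pax7, the factor of resting satellite cells, went from 0.706, 0.936 and 1.05 to 0.4898, 0.463 and 0.316 CPM (edgeR adjusted p = 0.0397), while myogenin (Myog) was at 2.08, 2.77 and 2.96 and 2.71, 2.01 and 4.05 CPM, not called (edgeR adjusted p = 0.537).

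Among cardiac markers the natriuretic peptide gene Nppb was at 0.247, 0.0347 and 0.478 CPM in control and 6.94, 9.68 and 5.76 CPM in DPCP libraries. It passed the count filter through the DPCP libraries alone, so no test is given. Tnnt2, the cardiac troponin T gene, was at 4.62, 5.41 and 5.71 and 3.803, 2.96 and 4.33 CPM, not called (edgeR adjusted p = 0.0865).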
